A study of Mus musculus with 12 samples.

Results

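The 38 genes described here carry or control calcium in the heart muscle cell, out of 27248 gene names on an Agilent single-colour mouse expression array. They were taken from a fixed list of symbols and matched to the gene name of each probe. The matching used no measured value, but the list itself was drawn up with earlier results of these data known. Of the 38 genes, 19 belong to the sarcoplasmic reticulum (SR), 10 to the surface membrane, 6 are calmodulin and calmodulin kinase genes of the cytosol, and 3 are mitochondrial. Together they had 100 probes, and 36 genes had at least 1 probe that could be tested.

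The arrays hold heart muscle RNA of 12 mice (C57BL6/J males labelled as 5 months old), with 1 array per mouse and 3 mice in each of 4 groups. Control mice (C) received no streptozotocin, and vehicle in place of pargyline. Diabetic mice (D) received streptozotocin, which kills the insulin-producing cells of the pancreas, as 5 daily doses of 50 mg/kg with vehicle in place of pargyline, and counted as diabetic from 17 mM blood glucose. Control mice with pargyline (C + P) and diabetic mice with pargyline (D + P) received pargyline, which blocks monoamine oxidase, for 12 weeks at a daily 50 mg/kg, alone or on top of streptozotocin. In this model the lack of insulin comes from a toxin, and the tissue is whole heart muscle, so each value is a mixture of all its cells. Fewer cells of a type and less RNA per cell cannot be told apart in such samples.

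At each heartbeat the L-type channel of the surface membrane (Cacna1c) admits a little calcium, which opens the ryanodine receptor (Ryr2) of the SR and releases the store. Relaxation follows when the SR pump SERCA2 (Atp2a2), held back by phospholamban (Pln), takes calcium up again and the sodium-calcium exchanger (Slc8a1) removes the rest. Calmodulin and its kinase CaMKII tune these proteins, and mitochondria take up part of the calcium through the uniporter (Mcu). Diabetic hearts are known for slow relaxation, in which the SR pump and CaMKII have been studied most.

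The array reads a gene through probes of 60 bases, and the results below turn on a few of them. The probes of Camk2b and Ryr2 are shown because several probes of a gene were set against each other, that of Cacna1g because its diabetic and non-diabetic arrays did not overlap, that of Stim1 because its arrays did not overlap within either pair, and those of Calm2 because they differed from each other. Each sequence is written 5′ to 3′ in lower case, no base is marked by capitals, and for 4 probes only the first 30 bases are given.

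Camk2b, position 3944 of its transcript, first 30 bases: tttctgagccttgtaggtgtacaaaactta
Camk2b, position 1554: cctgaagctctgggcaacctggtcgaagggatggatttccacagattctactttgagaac
Ryr2, position 8735: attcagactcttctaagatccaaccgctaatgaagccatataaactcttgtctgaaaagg
Ryr2, position 16311, first 30 bases: taaatgaacaaagaaagccctcagaaacaa
Cacna1g, position 7409: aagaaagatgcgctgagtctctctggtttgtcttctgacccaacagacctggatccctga
Stim1, position 3537, first 30 bases: agggctcttgtggagccctgggcaaggatg
Calm2, position 521: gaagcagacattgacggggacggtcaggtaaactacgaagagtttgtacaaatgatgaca
Calm2, position 924, first 30 bases: gttgttgttgaagtgtggagctgtaactct

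In mm9, the genome build of the probe coordinates, the Camk2b probes lie at chr11:5869675-5869734 and chr11:5872636-5872695 on the minus strand. The Ryr2 probes lie at chr13:11792652-11793104 and chr13:11645812-11645871, also on the minus strand. The first of these spans more than the 60 bases of the probe, so that it crosses a junction between exons. The Cacna1g probe lies at chr11:94270459-94270518 on the minus strand, the Stim1 probe at chr7:109585303-109585362 on the plus strand, and the Calm2 probes at chr17:87833376-87834455 and chr17:87832973-87833032 on the minus strand. All were designed on transcripts and so lie in exons, and whether each lies in the coding part or a UTR was not determined here.

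The arrays read as heart muscle, since all 9 cardiomyocyte marker genes were well above background on all 12 arrays. Spots well above background numbered 23556 to 29231 of 59305 per array. The coefficient of variation of repeated spots was between 3.9% and 23.3%. It was 23.3% on D replicate 1, 16.0% on C + P replicate 1 and 15.2% on D + P replicate 1. All of these lay in slide column 1. D + P replicate 3 and C replicate 1 followed at 12.8% and 10.2%, and the other arrays had at most 5.7%. C and D lay on slide 1 and C + P and D + P on slide 2, so pargyline and slide cannot be told apart. Within a slide, row 1 held the non-diabetic and row 2 the diabetic hearts, so diabetes and row cannot be told apart either. Of 4 adipocyte markers only Cidea was well above background on all arrays, with log2 means of 12.25 (C), 12.34 (C + P), 12.59 (D) and 12.57 (D + P), and the defining adipocyte genes Adipoq, Plin1 and Ucp1 were well above background on no array. The number of arrays limits the precision.

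The effect of diabetes was read as D against C, as D + P against C + P, and as the mean of both, called diabetes averaged over pargyline. Values are log2 intensities after quantile normalisation, a change is a difference of such values, its error is the SE of the fit, and each gene is given by its brightest tested probe. Camk2b, the beta chain of CaMKII, was the only member that passed the adjusted threshold, and it fell. In diabetes averaged over pargyline, 1 of 36 genes was lower and 0 higher at an adjusted p under 0.05 (limma, Benjamini-Hochberg), against 0.0518% lower and 0.0551% higher of 30859 tested probes. At an unadjusted p under 0.05, 5 genes were lower and 0 higher, against 5.46% and 5.93% of all tested probes. The 5 were Camk2b, Ryr2, Cacna1g, Stim1 and Casq1, of which Casq1 was well above background on no array. The median change was -0.08 over the 36 genes and -0.01 over all tested probes, with 15 genes above 0 and 21 below. The SR pump, phospholamban, the exchanger and the uniporter were not among these 5, and their changes are given with intervals below.

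**Figure D1:**
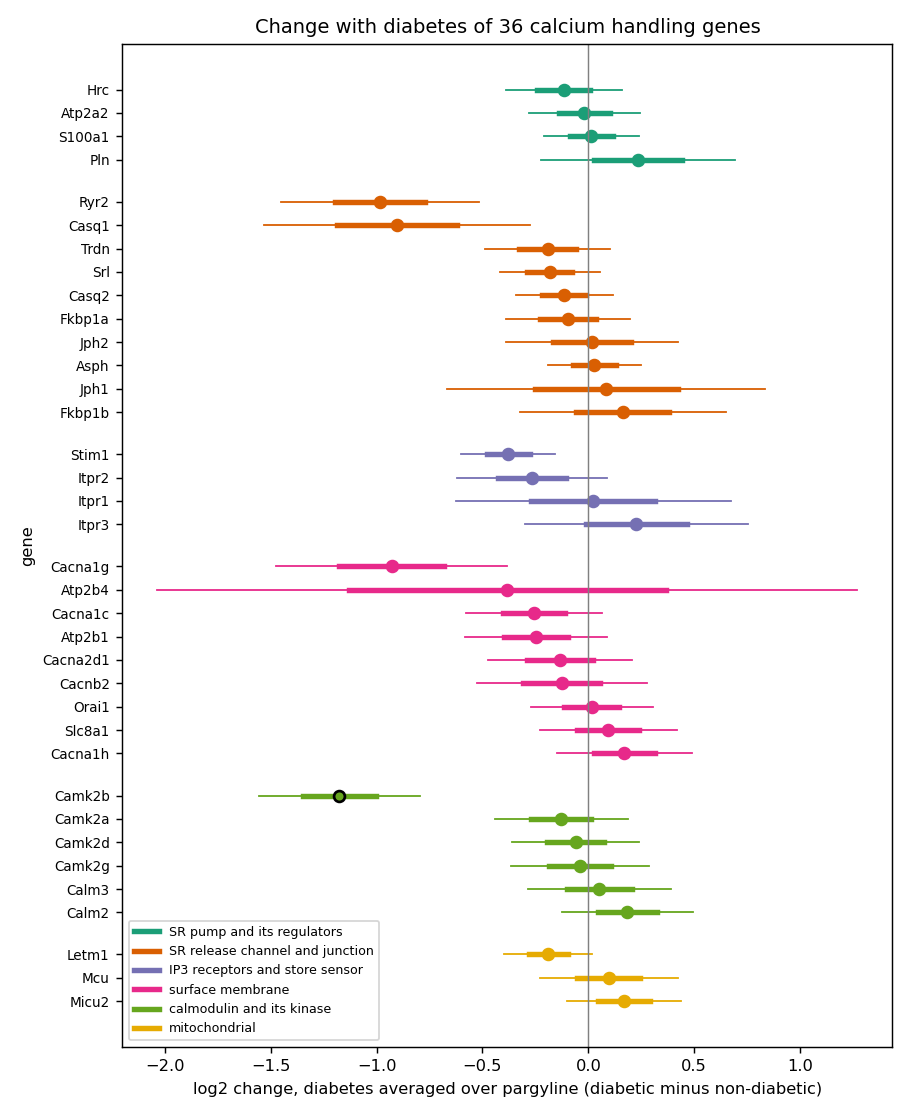
Log2 change with diabetes averaged over pargyline (horizontal axis) for the brightest tested probe of 36 genes, coloured by function. Thick bars are 1 SE, thin bars the 95% confidence interval, and the black ring marks Camk2b, which alone passed the adjusted threshold (-1.18). Ryr2 and Cacna1g lie at -0.99 and -0.93, and Stim1 and Atp2b4 at -0.38. Casq1 was well above background on no array, so its place is not to be read.

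Camk2b encodes a chain of CaMKII that is best known from brain and skeletal muscle, whereas the delta chain (Camk2d) dominates in heart. Its brightest probe read 9.14, 9.19 and 9.18 on the C arrays, 9.32, 9.21 and 9.01 on C + P, 7.64, 8.05 and 8.33 on D, and 8.52, 7.72 and 7.73 on D + P. Every diabetic array lay below every non-diabetic array. The change was -1.18 (SE 0.17, 95% interval -1.55 to -0.80), which is 2.26-fold lower, with a limma adjusted p of 0.0423. Without pargyline (D against C) it was -1.16 (SE 0.24, limma adjusted p = 0.236). With pargyline (D + P against C + P) it was -1.19 (SE 0.24, limma adjusted p = 0.193). The pargyline differences were 0.01 in non-diabetic and -0.02 in diabetic hearts, each with an SE of 0.24.

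The second Camk2b probe, at position 1554, was dimmer. It read 4.59, 6.89 and 5.23 on C, 4.96, 5.15 and 5.37 on C + P, 4.44, 4.64 and 4.45 on D, and 4.16, 3.78 and 3.83 on D + P. It was well above background on 2 C arrays, 1 C + P array and no diabetic array, so only a bound can be given. The mean of C was at least 1.13-fold that of D, although C replicate 1 lay below D replicate 2, and no bound is given for C + P over D + P. The bound for C over D rests on 1 array, C replicate 2 at 6.89, since the other C arrays read 4.59 and 5.23.

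The call for Camk2b was lost in most fits with 1 array left out and in some fits with a block. Its change lay between -1.31 and -1.08 when any 1 array was left out, but the limma adjusted p stayed under the threshold in only 2 of the 12 cases, at 0.0441 without D replicate 3 and 0.00976 without D + P replicate 1. It was 0.149, 0.1415 and 0.148 without C replicates 1, 2 and 3 in turn, and 0.0835, 0.0969 and 0.11 without C + P replicates 1, 2 and 3. It was 0.0699 and 0.0935 without D replicates 1 and 2, and 0.123 and 0.1145 without D + P replicates 2 and 3. Calls over all tested probes dropped as well, from 33 with all arrays to between 3 and 15 in the 10 cases that lost Camk2b. With the slide column as a block the limma adjusted p of Camk2b was 0.236 (change -1.18, SE 0.20), and with the replicate block 0.127 (SE 0.19), where 3 and 4 probes passed in all. With slide as a block it was kept, at 0.0318, where 29 probes passed.

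Skeletal muscle markers were measured on the same arrays. The summed linear intensity of the 9 listed markers was 656 to 726 on C, 771 to 1046 on C + P, 489 to 669 on D and 496 to 782 on D + P, so that D overlapped C and D + P overlapped C + P. Tnni2, the troponin I of fast skeletal muscle, had group means of 7.93 (C), 8.15 (C + P), 7.09 (D) and 6.98 (D + P). Its highest diabetic array, at 7.75, lay just below its lowest non-diabetic array, at 7.80. For Camk2b these arrays lay further apart, at 8.52 and 9.01. The myosin-binding protein Mybpc2, the other marker well above background on all arrays, had means of 7.91, 8.40, 7.604 and 7.71 in the same order, and the troponin T gene Tnnt3 had 5.74, 6.05, 6.03 and 5.66. The marker Pvalb, well above background on 11 arrays, had means of 6.06, 6.47, 5.85 and 6.37 and overlapped within each pair. Myh4 and Mylpf were well above background on 4 arrays and on 1 array. Myosin genes Myh1 and Myh2 and the fast alpha-actinin Actn3 were well above background on no array. The part of these markers in the Camk2b result was not tested.

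**Figure D2:**
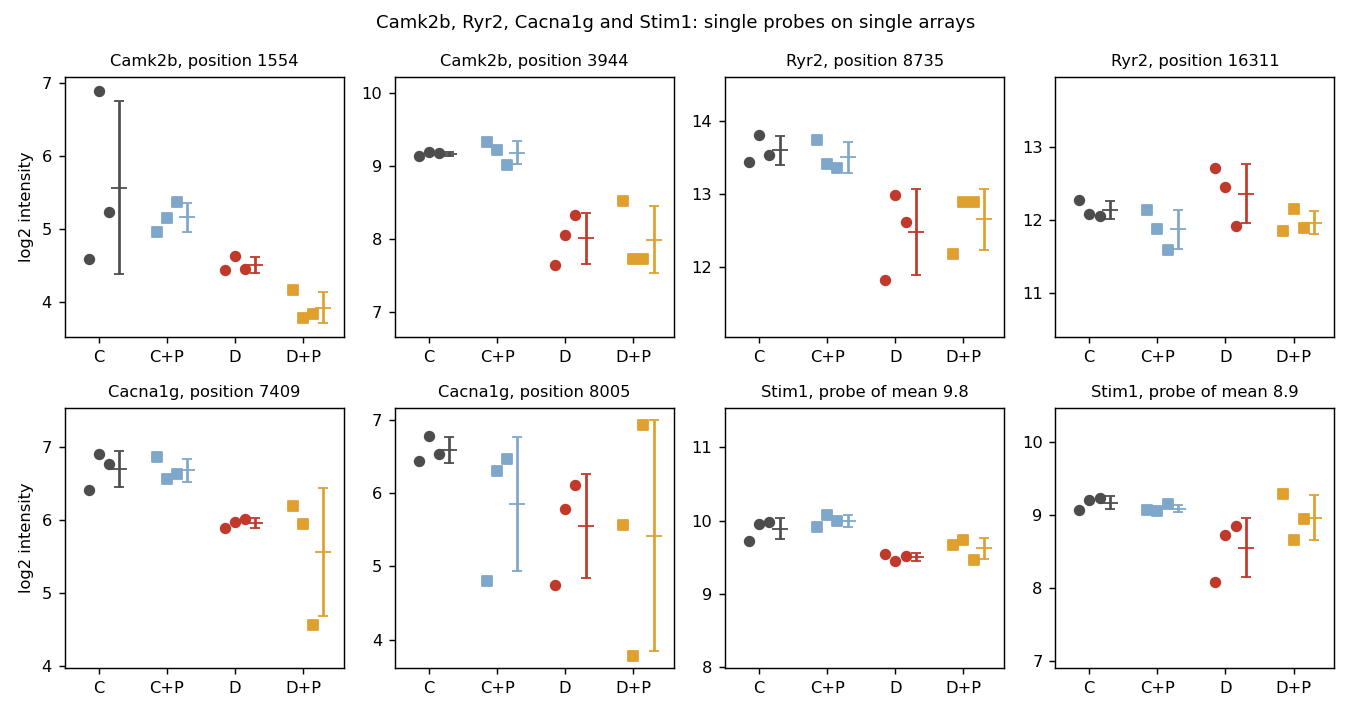
Log2 intensity of 2 probes each of Camk2b, Ryr2, Cacna1g and Stim1 on each of 12 arrays, by group, with position counted along the transcript. Points are arrays, and the bar is the group mean and SD (n = 3). All panels span the same range of log2 units around different centres. The diabetic arrays lie below the non-diabetic ones for Camk2b at 3944, Ryr2 at 8735 and Cacna1g at 7409, but not for Ryr2 at 16311.

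The other calmodulin kinase genes stood apart from Camk2b. Camk2d read 9.52, 9.45 and 9.60 on C, 9.95, 9.56 and 9.49 on C + P, 9.09, 9.62 and 9.69 on D, and 9.62, 9.49 and 9.69 on D + P. The groups overlapped, and its change was -0.06 (SE 0.14, 95% interval -0.36 to 0.24). Camk2a lay at -0.13 (SE 0.14) and Camk2g at -0.04 (SE 0.15). Calmodulin itself, the calcium sensor that activates the kinase, was read through Calm2 and Calm3, at 0.18 (SE 0.14) and 0.05 (SE 0.15) by their brightest probes. The second Calm2 probe read 9.61, 9.52 and 9.46 on C, 9.64, 9.77 and 9.51 on C + P, 9.80, 10.22 and 10.03 on D, and 10.30, 9.80 and 10.24 on D + P. By that probe every diabetic array lay above every non-diabetic array, with a change of 0.48 (SE 0.13) and a limma adjusted p of 0.21. Over the 6 calmodulin and kinase genes, 1 was lower and 0 higher at an unadjusted p under 0.05 (5.46% and 5.93% of all tested probes), with a median of -0.05.

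Ryr2, the SR release channel, gave different readings along its transcript. The brightest probe, at position 8735, read 13.44, 13.81 and 13.54 on C, 13.75, 13.41 and 13.36 on C + P, 11.83, 12.99 and 12.62 on D, and 12.18, 12.89 and 12.90 on D + P. Every diabetic array lay below every non-diabetic array by this probe. Its change was -0.99 (SE 0.21, 95% interval -1.45 to -0.52), which is 1.98-fold lower, and did not pass, with a limma adjusted p of 0.141. Without pargyline it was -1.12 and with pargyline -0.85, each with an SE of 0.30.

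The Ryr2 probe at position 16311, nearer the 3′ end, did not follow. It read 12.27, 12.08 and 12.05 on C, 12.13, 11.88 and 11.59 on C + P, 12.71, 12.44 and 11.92 on D, and 11.85, 12.15 and 11.89 on D + P. These groups overlapped, and the change was 0.16 (SE 0.16, limma adjusted p = 0.725). Another tested probe, designed on another transcript, lies at chr13:11863540-11863599, on the 5′ side of the probe at 8735. It was dimmer, with a mean of 6.57, and its change was -0.22 (SE 0.17, limma adjusted p = 0.637). The value at 8735 minus that at 16311 was 1.17 to 1.74 on C, 1.53 to 1.77 on C + P, -0.88 to 0.70 on D and 0.33 to 1.01 on D + P, so that these differences did not overlap between diabetic and non-diabetic arrays.

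Loss of signal towards the 5′ end was measured on the same arrays. The median log2 difference between the 5′ and the 3′ probe, over 692 transcripts with probes at least 2000 bases apart, averaged 0.02 (C), 0.05 (C + P), -0.08 (D) and 0.00 (D + P), and was lowest on D replicate 1 at -0.15. With this index as a covariate, which was added after the values were seen, the change of Ryr2 at 8735 was -1.003 (SE 0.26, limma adjusted p = 0.406) and that of Camk2b -1.03 (SE 0.19, limma adjusted p = 0.246). The mean of all 3 tested Ryr2 probes lay at -0.35 (SE 0.12, limma adjusted p = 0.299). The part of transcript forms in the Ryr2 result was not tested.

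Among the partners of Ryr2 in the junction between SR and surface membrane, no gene passed the adjusted threshold. Calsequestrin 2 (Casq2), the calcium store protein of the heart SR, read 14.96, 15.06 and 15.01 on C, 14.96, 14.96 and 14.76 on C + P, 14.80, 14.87 and 15.09 on D, and 14.64, 14.69 and 14.93 on D + P. Diabetic and non-diabetic arrays overlapped in each pair, with a change of -0.11 (SE 0.10, 95% interval -0.34 to 0.12). C + P lay wholly below C, with a difference of -0.12 (SE 0.15). Its skeletal muscle relative Casq1 had group means of 4.79 (C), 4.73 (C + P), 3.85 (D) and 3.85 (D + P), but was well above background on no array, so that no fold is given. Triadin (Trdn), which anchors calsequestrin, lay at -0.19 (SE 0.13), and the FK506-binding proteins Fkbp1a and Fkbp1b, which bind the release channel, at -0.10 (SE 0.13) and 0.16 (SE 0.22). The junctophilins Jph1 and Jph2, which tie SR to surface membrane, lay at 0.09 (SE 0.34) and 0.02 (SE 0.18). Asph, whose locus also encodes junctin, lay at 0.03 (SE 0.10) by its brightest probe and at -0.47 (SE 0.19) and 0.12 (SE 0.18) by the others, and sarcalumenin (Srl), a calcium-binding protein of the SR lumen, at -0.18 (SE 0.11). The 10 genes of release channel and junction had a median of -0.11, with 2 lower and 0 higher at an unadjusted p under 0.05 (5.46% and 5.93% of all tested probes).

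The SR pump and its regulators did not pass in either direction. Atp2a2 read 16.44, 16.15 and 16.09 on C, 16.16, 16.01 and 15.73 on C + P, 16.17, 16.32 and 16.21 on D, and 15.73, 16.05 and 15.99 on D + P. Diabetic and non-diabetic arrays overlapped in each pair, and its change was -0.02 (SE 0.12, 95% interval -0.28 to 0.24). D + P lay wholly below D, at -0.31 (SE 0.17, limma adjusted p = 0.44), whereas by a second probe D + P lay wholly above D, at 0.22 (SE 0.19). That second probe lay at 0.03 (SE 0.13) with diabetes averaged over pargyline, although its D arrays were wholly below C, at -0.23 (SE 0.19). The remaining Atp2a2 probe lay at -0.38 (SE 0.25, 95% interval -0.92 to 0.17), so that the interval of the pump depends on the probe. Pln read 13.70, 13.50 and 13.26 on C, 13.98, 13.06 and 12.77 on C + P, 14.08, 13.95 and 13.46 on D, and 13.49, 13.23 and 13.46 on D + P. Its change was 0.23 (SE 0.21, 95% interval -0.23 to 0.69). The histidine-rich SR protein Hrc lay at -0.12 (SE 0.12) and S100a1, a calcium sensor that promotes pump activity, at 0.01 (SE 0.10). Sarcolipin (Sln), the pump inhibitor of the atria, read 2.87 to 3.53 over all 12 arrays and was well above background on none, so it was not tested. The atrial markers Bmp10 and Sbk2 were likewise well above background on no array. The linear sum of the 6 atrial markers was 11320 to 16110 on C, 20130 to 27870 on C + P, 36620 to 47270 on D and 24360 to 48940 on D + P. This sum is carried by Nppa, the atrial natriuretic peptide, whose log2 means were 13.70, 14.43, 15.37 and 15.20, while the atrial light chain Myl4 had 8.08, 8.16, 7.83 and 7.79. The median of the 4 tested genes was -0.00.

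**Figure D3:**
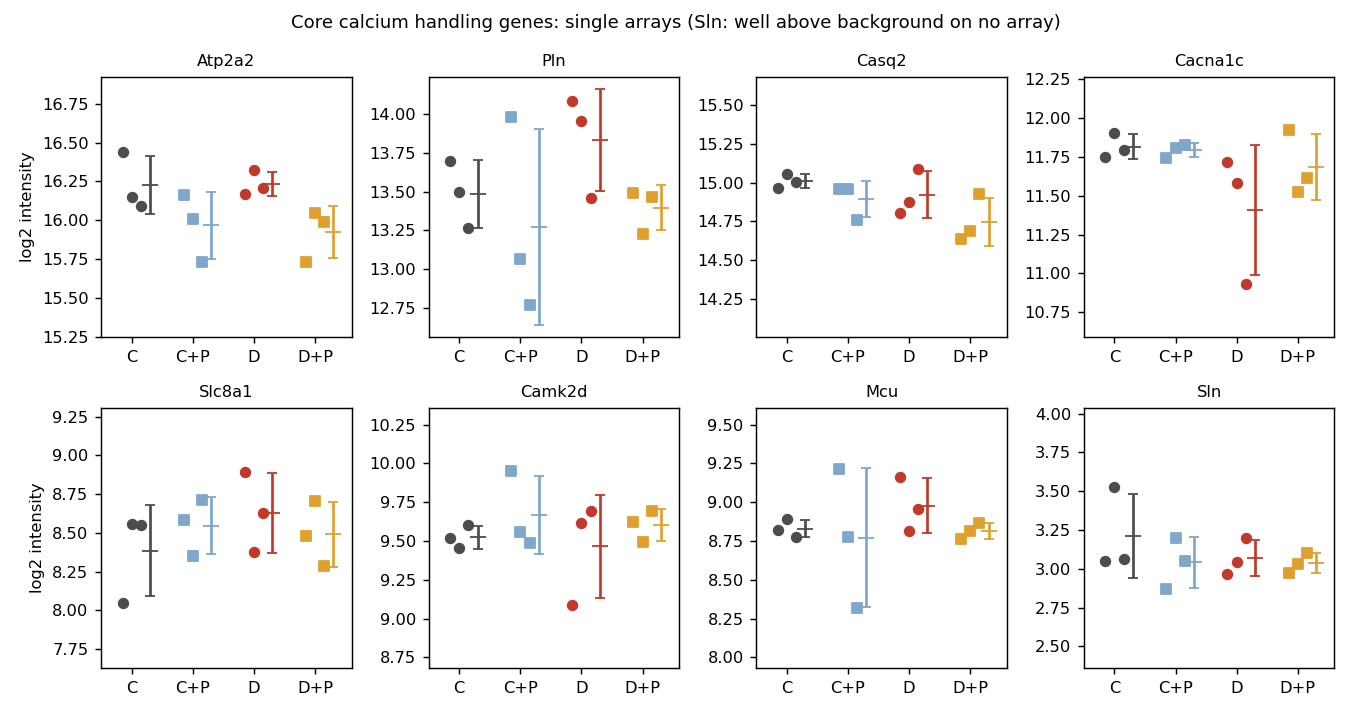
Log2 intensity of 8 core genes on each of 12 arrays, by group, each by its brightest tested probe (Sln by its brightest probe, not well above background on any array). Points are arrays, and the bar is the group mean and SD (n = 3). All panels span the same range of log2 units around different centres, and Atp2a2 lies between 15.73 and 16.44. Of these genes only Cacna1c has D wholly below C.

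Stim1, the sensor that reports an empty store to the surface membrane, was among the lower genes. Its brightest probe read 9.72, 9.96 and 9.98 on C, 9.91, 10.08 and 9.998 on C + P, 9.55, 9.44 and 9.52 on D, and 9.67, 9.74 and 9.46 on D + P. The D arrays lay below the C arrays and the D + P arrays below the C + P arrays. The change was -0.38 (SE 0.10), or 1.30-fold, and did not pass, with a limma adjusted p of 0.219. With normexp background correction it was -0.16 (SE 0.13). A second probe lay at -0.37 (SE 0.16), and another was well above background on no array. Stim1 is also active in white blood cells. The linear sum of the 5 leukocyte markers was 19550 to 22180 on C, 19390 to 28400 on C + P, 16360 to 18220 on D and 13920 to 17140 on D + P. All 5 markers were well above background on all arrays, and Ptprc, Cd68, Csf1r and Lyz2 had lower means in D than in C and in D + P than in C + P, whereas the T cell gene Cd3e had 9.31, 9.45, 9.46 and 9.47. The macrophage gene Cd68 had log2 means of 8.77, 8.68, 8.41 and 8.06, with D wholly below C and D + P wholly below C + P, the same separation as for Stim1. The part of these cells in the Stim1 result was not tested. Orai1, the channel that Stim1 opens, lay at 0.02 (SE 0.13).

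The inositol trisphosphate receptors, a second family of store release channels, showed no common direction. Itpr1 lay at 0.02 (SE 0.29), Itpr2 at -0.27 (SE 0.16) and Itpr3 at 0.23 (SE 0.24). The 3 D arrays of Itpr2 read 9.66 to 9.70, below the C arrays at 10.02 to 10.16, while the D + P arrays at 9.69 to 10.20 overlapped the C + P arrays at 9.50 to 10.37. None of the 3 genes had an unadjusted p under 0.05.

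At the surface membrane, Cacna1g stood lowest. It encodes the T-type channel Cav3.1, known from pacemaker and conduction tissue. Its brightest probe read 6.41, 6.90 and 6.77 on C, 6.86, 6.56 and 6.63 on C + P, 5.89, 5.97 and 6.01 on D, and 6.19, 5.94 and 4.56 on D + P, and was well above background on 10 arrays. Every diabetic array lay below every non-diabetic array. The change was -0.93 (SE 0.25), or 1.90-fold, with a limma adjusted p of 0.219. Without D + P replicate 3, the lowest array, it was -0.68, and with normexp background correction -0.51. The second probe, at position 8005, lay at -0.74 (SE 0.50), and by it the D arrays lay below the C arrays while D + P overlapped C + P. Cacna1h, the other T-type channel measured, lay at 0.17 (SE 0.14).

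The L-type channel and the exchanger held no call. Cacna1c read 11.75, 11.91 and 11.80 on C, 11.75, 11.81 and 11.83 on C + P, 11.72, 11.58 and 10.93 on D, and 11.92, 11.52 and 11.61 on D + P. D lay below C, D + P overlapped C + P, and the change was -0.26 (SE 0.15, 95% interval -0.58 to 0.06). The lowest array was D replicate 3, and over 26 settings the change lay between -0.35 and 0.04. A second Cacna1c probe lay on the other side of 0, at 0.44 (SE 0.18, limma adjusted p = 0.405), and another at -0.06 (SE 0.27). The L-type channel's accessory subunits Cacnb2 and Cacna2d1 lay at -0.13 (SE 0.18) and -0.13 (SE 0.15). Cacna1d, the L-type channel of the sinus node, had no tested probe.

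Slc8a1 read 8.05, 8.56 and 8.55 on C, 8.58, 8.35 and 8.71 on C + P, 8.89, 8.38 and 8.63 on D, and 8.48, 8.71 and 8.29 on D + P. Its groups overlapped, with a change of 0.09 (SE 0.15, 95% interval -0.23 to 0.42). Of the surface membrane pumps, Atp2b1 lay at -0.25 (SE 0.15) by its brightest probe and -0.41 (SE 0.29) by the other, and Atp2b4 spread too widely to be read, from 3.24 on C + P replicate 1 and 3.48 on D replicate 1 to 7.40 on C + P replicate 3. The 9 tested surface membrane genes had a median of -0.13, with 1 lower and 0 higher at an unadjusted p under 0.05 (5.46% and 5.93% of all tested probes).

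By their brightest probes the mitochondrial genes lay close to 0. Mcu read 8.82, 8.89 and 8.78 on C, 9.21, 8.78 and 8.32 on C + P, 9.16, 8.81 and 8.96 on D, and 8.77, 8.81 and 8.87 on D + P, with a change of 0.10 (SE 0.15, 95% interval -0.23 to 0.42). The tested Mcu probes ranged from -0.33 to 0.11. The lowest of them, well above background on 11 arrays, lay at -0.70 (SE 0.33, limma adjusted p = 0.472) in D against C, with D replicate 3 at 5.48. Micu2, a gatekeeper of the uniporter, lay at 0.17 (SE 0.12). Letm1, an inner membrane protein linked to calcium and potassium exchange, lay at -0.19 (SE 0.09, limma adjusted p = 0.482). Its D arrays, at 11.41 to 11.68, lay below the C arrays, at 11.70 to 11.72, and its D + P arrays, at 11.48 to 11.65, below the C + P arrays, at 11.69 to 11.83.

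Pair by pair, no member passed the adjusted threshold. In D against C, 0 of 36 genes passed at an adjusted p under 0.05 (limma), against 0.00648% of all tested probes, and 4 genes were lower and 0 higher at an unadjusted p under 0.05, against 5.66% and 5.13% of all probes. With pargyline the adjusted count was 0 by limma, against 0.0454%, then 4 lower and 0 higher, against 3.79% and 3.67%. The methods' t-test also passed 0 members after Benjamini-Hochberg adjustment in each pair, against 0% and 0.00324% of all probes, with 5 and 4 members at an unadjusted p under 0.05, against 11.4% and 6.55%. D lay wholly below C for 10 genes and wholly above for 1 (10.4% and 11.9% of all probes). D + P lay wholly below C + P for 5 genes and wholly above for 0 (6.57% and 7.32%). In both pairs at once the groups did not overlap for 5 lower genes, namely Camk2b, Ryr2, Cacna1g, Stim1 and Letm1, and for no higher gene, against 1.29% and 1.21% of all probes. The 2 pairs share no array, but they share the fit's estimate of spread.

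**Figure D4:**
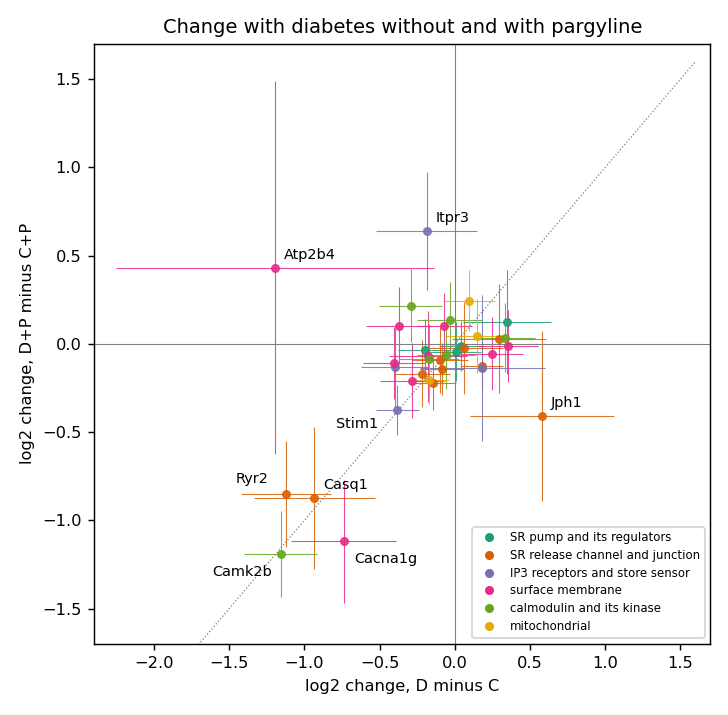
Log2 change with diabetes without pargyline (horizontal axis, D minus C) and with it (vertical axis, D + P minus C + P) for 36 genes, by function. Bars are 1 SE and the dotted line marks equal change. Camk2b lies at -1.16 and -1.19 and Ryr2 at -1.12 and -0.85, while Atp2b4 has the widest bars (SE 1.06).

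Whether pargyline altered these genes was read in the non-diabetic and in the diabetic hearts, with slide and pargyline not to be told apart. In C + P against C, 0 of 36 genes passed at an adjusted p under 0.05 (limma), against 0.0324% of all tested probes, and 1 gene was higher and 1 lower at an unadjusted p under 0.05, against 1.95% and 2.48%. The C + P arrays lay wholly above C for 1 gene and wholly below for 3 (7.35% and 8.02% of all probes). Among diabetic hearts (D + P against D) the limma count was again 0, against 0%, then 1 higher and 1 lower, against 6.85% and 6.43%. There D + P lay wholly above D for 1 gene and wholly below for 3 (7.92% and 9.12%). The methods' t-test passed 0 members after adjustment in either comparison, against 0.00324% of all probes in each, with 3 members at an unadjusted p under 0.05 in each, against 7.69% and 8.34%. Fkbp1a was the gene with an unadjusted p under 0.05 on the higher side in both, at 0.44 and 0.45 (SE 0.19 each), while its second probe lay at -0.07 and -0.27 (SE 0.24 each). In D + P against D no member was left on the higher side without D replicate 2, or without D + P replicate 1 or 2. In C + P against C none was left without C replicate 2 or 3, or without any 1 C + P array.

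Camk2g, the gamma chain of the kinase, had the smallest p in C + P against C. It read 11.91, 11.82 and 11.61 on C, 11.12, 11.33 and 11.38 on C + P, 11.90, 11.48 and 11.08 on D, and 11.55, 11.31 and 11.61 on D + P. C + P lay below C without overlap, at -0.51 (SE 0.21, limma adjusted p = 1.0), and D + P against D was 0.00 (SE 0.21).

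Jph1 had the smallest p in D + P against D by the brightest probes. It read 5.42, 5.33 and 5.73 on C, 5.85, 4.81 and 4.81 on C + P, 6.37, 5.69 and 6.16 on D, and 5.36, 5.40 and 3.48 on D + P, and was well above background on 7 arrays, of which 2 were D and 1 was D + P. D + P lay below D without overlap, with a fitted difference of -1.32 (SE 0.48, limma adjusted p = 0.286), and without D + P replicate 3 the difference was -0.69. This gene is known as the junctophilin of skeletal muscle, and the skeletal marker sums are given above.

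Dimmer probes of 2 members, named after their values were seen, had smaller p in D + P against D. A second probe of Asph, designed on another transcript, read 10.56, 10.77 and 10.63 on C, 10.75, 10.82 and 11.20 on C + P, 10.25, 9.88 and 9.08 on D, and 11.08, 10.79 and 10.84 on D + P. By it D lay wholly below all other arrays, with D against C at -0.91 (SE 0.27, limma adjusted p = 0.322) and D + P against D at 1.16 (SE 0.27, limma adjusted p = 0.176). The size of both leans on D replicate 3, the lowest array at 9.08. The brightest Asph probe lay on the other side of 0 in both, at 0.18 and -0.20 (SE 0.14 each).

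An Itpr1 probe near the 5′ end, at position 395, read 8.32, 8.28 and 8.02 on C, 7.94, 8.37 and 8.49 on C + P, 8.09, 7.80 and 6.98 on D, and 8.47, 8.52 and 8.65 on D + P. D + P lay wholly above D, at 0.92 (SE 0.26, limma adjusted p = 0.214), and D against C was -0.58 (SE 0.26, limma adjusted p = 0.462). Both differences lean on D replicate 3, the lowest array at 6.98. The brightest Itpr1 probe, at position 9786, lay at -0.29 (SE 0.42) and 0.18 (SE 0.42) in these comparisons. A dim Mcu probe also had a smaller p than Jph1 but was well above background on no array.

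Whether the effect of diabetes differed with pargyline was tested by the interaction. By limma 0 of 36 genes passed at an adjusted p under 0.05, against 0.00648% of all probes, and 0 had an unadjusted p under 0.05 by their brightest probes, against 7.03%. The second Asph probe and the Itpr1 probe at position 395 lay at 0.89 (SE 0.38, limma adjusted p = 0.703) and 0.86 (SE 0.37, limma adjusted p = 0.704). A second probe of the pump gene Atp2b1, well above background on 10 arrays, lay at -1.39 (SE 0.58, limma adjusted p = 0.703). That value leans on D + P replicate 1, which read 4.17 against 6.19 and 5.62 on the other D + P arrays. Among brightest probes the smallest p was that of Itpr3, which read 9.62, 9.76 and 9.74 on C, 8.32, 9.68 and 9.94 on C + P, 9.54, 9.61 and 9.40 on D, and 10.12, 9.90 and 9.85 on D + P. The interaction was 0.83 (SE 0.48, limma adjusted p = 0.741), and C + P replicate 1 stood apart from all other arrays. Without that array it was 0.33. For Camk2b the interaction was -0.03 (SE 0.34, 95% interval -0.79 to 0.73).

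Different probes of a gene often disagreed in sign. Of 21 genes with over 1 tested probe, 10 had probes on both sides of 0 in diabetes averaged over pargyline. Both Cacna1g probes lay below 0, as did the 2 brighter Stim1 probes.

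**Figure D5:**
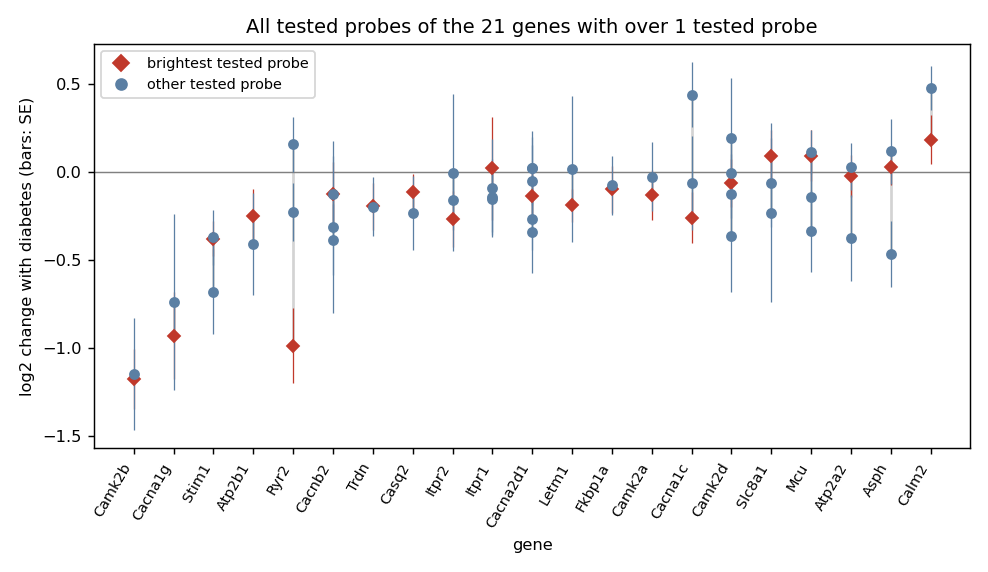
Log2 change with diabetes averaged over pargyline (vertical axis, bars 1 SE) for every tested probe of the 21 genes with over 1 tested probe. Diamonds are the brightest tested probe and circles the others. The Ryr2 probes spread from -0.99 to 0.16, and those of Atp2a2 from -0.38 to 0.03. The dimmer Camk2b probe was well above background on no diabetic array, so its place is not to be read.

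Of 61 further genes of the same pathway (protein kinase A, calcium channel subunits, phosphatases and others), 60 were on the array by name and 56 were tested. In diabetes averaged over pargyline 0 passed by limma, and 3 were higher and 5 lower at an unadjusted p under 0.05 (5.93% and 5.46% of all tested probes), with a median of -0.02. The 5 smallest p belonged to Cacna2d2, Rrad, Prkar1a, Cacnb1 and Prkacb. Rrad, a small GTPase that restrains L-type channels, read 9.14, 9.24 and 9.27 on C, 9.78, 9.96 and 9.95 on C + P, 10.22, 10.22 and 9.89 on D, and 9.68, 10.40 and 10.09 on D + P. Thus C was the lowest group, with a difference of 0.89 (SE 0.19, limma adjusted p = 0.237) in D against C and 0.16 (SE 0.19) in D + P against C + P. The channel subunits Cacna2d2 and Cacnb1 lay at -0.51 (SE 0.12) and -1.10 (SE 0.36) in the averaged comparison, where Cacnb1 was well above background on only 1 D and 2 D + P arrays. Prkar1a and Prkacb, a regulatory and a catalytic subunit of protein kinase A, lay at 0.52 (SE 0.14) and 0.36 (SE 0.12), and none of the 5 passed.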

How the data were processed

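Per the labels, 200 ng of total heart RNA per mouse was labelled with Cy3. The authors scanned 12 single-colour arrays, and the deposited scanner files hold spot intensity on a linear scale, background-subtracted and detrended by Feature Extraction 12.0.0.7 per the file headers. The deposited series table holds the authors' quantile-normalised intensity, used as an alternative. Subtraction makes dim probes uncertain, and quantile normalisation removes any shift common to all genes.

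Here intensities were log2 transformed and quantile normalised, outlier spots were set to missing and repeated spots averaged. Probes that were positive and significant in no fewer than 50% of the arrays, in each of the 4 groups, were tested (30859 of 56605). limma 3.58.1 in R 4.3.3 was fitted with 1 mean per group over 12 arrays (8 residual and 2.62 prior degrees of freedom), two-sided, with Benjamini-Hochberg adjustment over all tested probes and a threshold of 0.05. A gene is its brightest tested probe. The fit was tested on simulated data. Samples were grouped by their labels, and p-values measure the spread between mice of a single experiment.

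Array values are given for 9 core genes, members past the threshold, members with an unadjusted p under 0.05 whose arrays did not overlap in both pairs, and the smallest p of each comparison. The second Calm2, Asph and Atp2b1 probes, the Itpr1 probe at position 395, Fkbp1a, Itpr2, Letm1 and Atp2b4 were added after their values were seen. Members and lists were chosen with earlier results of these data known. Figures were drawn with matplotlib 3.10.9 (Python 3.11.15).

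Alternatives were another scaling, background correction, filter, test, block or set of arrays. Marker lists not described in the results (smooth muscle, endothelial, fibroblast and red cell) had 3 of 4, 4 of 4, 4 of 4 and 3 of 3 genes well above background on all arrays.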

Additional observations from a re-analysis of the deposited data

How the results depend on the processing

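In diabetes averaged over pargyline the number of members past the adjusted threshold was 1 (Camk2b). It was again 1 with scaling to the 75th percentile, normexp correction, values that were not positive and significant set to missing, the filter on signal well above background, the authors' normalised table, the methods' t-test and slide as a block. It was 0 with no filter, with the slide column as a block and with the mean of all tested probes of a gene. It was also 0 with 2 settings chosen after seeing the data, namely the 5′ to 3′ index as a covariate and leaving out D replicate 1 and C + P replicate 1 together. With array weights it was 2 (Camk2b and Ryr2), and D against C and D + P against C + P each had 1 (Camk2b) where the unweighted fit had 0. Calls over all probes under array weights went from 33 to 348, from 2 to 279 and from 14 to 39 in these 3 comparisons. Leaving out 1 array gave 0 to 1 in diabetes averaged over pargyline, and 0 to 1 in D + P against C + P, where Camk2b passed without D + P replicate 1. All other adjusted counts stayed at 0 under the settings run. The counts at an unadjusted p under 0.05 moved too, and no share of all probes was computed for them under most settings. Lower members numbered 2 to 8 in D against C, 3 to 5 in D + P against C + P and 4 to 9 in the averaged comparison. Higher members numbered 0 to 1 in each of these. The direction of Camk2b, Ryr2, Cacna1g and Stim1 in the 3 diabetes comparisons held under all 26 settings, with changes in the averaged comparison of -1.31 to -0.92 for Camk2b, -1.11 to -0.35 for Ryr2, -1.08 to -0.51 for Cacna1g and -0.48 to -0.16 for Stim1. The smallest Stim1 and Cacna1g changes came with normexp correction and the smallest Ryr2 change with the mean of its probes, and the causes were not tested.

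Whether replicate numbers pair the mice is not given in the labels, and the correlations that follow cannot exclude it. Deviations of same-numbered arrays correlated between -0.20 and 0.20, and those of other arrays between -0.19 and 0.21, with 5 arrays closest to an array of their own number. With the replicate block the averaged count was 0, and the other comparisons stayed at 0. The methods' t-test was not run for the interaction. With Bonferroni adjustment of the t-test as run here, 0 members passed in each comparison it covered. Over all tested probes this adjustment passed 0 in D against C and 1 in each other comparison. The paper names an adjusted Bonferroni correction and reports far more altered genes in D against C and in C + P against C. The 0 members therefore hold for the t-test as run here and not for the calls of the paper.

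Signal over background limits Sln, Cacna1d, Casq1 and the second Camk2b probe. With 3 mice per group an exact permutation test of 3 against 3 cannot go below p = 0.1.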
